A study of Mus musculus with 8 samples.

Results

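The genes described here build, cross and supply the photoreceptor cilium: the BBSome and the factors that assemble it, the subunits of intraflagellar transport (IFT), the kinesins that drive it, the proteins of the transition zone and connecting cilium, and the carriers of lipid-anchored cargo. They are 39 genes named by symbol, and all 39 were found in the deposited table of 26824 genes and passed the filter on low counts that left 20167 genes for testing. The list follows function, and it was chosen with earlier results of these data known. It holds 7 BBSome subunits, 4 genes of BBSome assembly and recruitment, 11 subunits of the IFT-B complex and 3 of IFT-A, 2 ciliary kinesins, 8 genes of the transition zone and connecting cilium, and 4 genes of lipidated cargo transport.

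RNA was sequenced from whole mouse retina. The labels give 3 libraries of genotype WT (WT 1 to WT 3) and 5 of genotype Kv8.2 KO (KO 2 to KO 6). Kv8.2 is the potassium channel subunit encoded by Kcnv2, which is made in photoreceptors and gives no current without a partner subunit. Mice were 1 month old and untreated in both groups, 2 retinas were pooled per library, and the labels give neither strain, sex nor the design of the knockout allele. The comparison asks how the retinal transcriptome of the mice labelled KO differs from that of WT mice.

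The light-sensing outer segment of a rod or cone is a modified primary cilium. All its membrane proteins are made in the inner segment and pass through the narrow connecting cilium, which corresponds to the transition zone of other cilia. IFT-B complexes carry cargo outward with kinesin, IFT-A complexes return with dynein, the BBSome rides on these trains and takes membrane proteins out of the cilium, and lipid-anchored proteins are ferried in by soluble carriers and released by the GTPase Arl3. Loss of many of these genes causes retinal degeneration in people and mice.

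Facts about the libraries that touch every value come first. Library totals ran from 17759146 to 25188870 counts, and levels are given as CPM, the counts of a gene for each 1000000 counts of its library, scaled by edgeR's trimmed mean method (TMM). Kcnv2, the targeted gene, was present in every library, with 519, 551 and 526 CPM in the WT libraries, 585 CPM in KO 2, 447 CPM in KO 3, and 398, 409 and 409 CPM in KO 4 to KO 6. Its log2 fold change was -0.24 (SE 0.14, edgeR adjusted p = 0.275). The gene count therefore does not identify the knockouts, and directions below rest on the labels. The KO libraries were not alike: a chi-square comparison of their counts gene by gene gave, per degree of freedom, 5.85 to 6.92 between KO 4, KO 5 and KO 6, and 8.20 to 17.8 between WT libraries. It gave 110 between KO 2 and KO 3, 44.0 to 62.0 between KO 2 and KO 4 to KO 6, and 96.96 to 116 between KO 3 and KO 4 to KO 6. KO 4 to KO 6 were thus close to each other, while KO 2 and KO 3 were not, and they are joined below only as the KO libraries outside that set. Mitochondrial genes took 7.09% to 7.92% of counts in WT, 6.52% in KO 2, 5.23% in KO 3 and 3.03% to 3.70% in KO 4 to KO 6, and a list of 8 lens genes took 4.04% in KO 3 and at most 0.122% in any other library. The series text says that 2 KO samples were left out of the authors' test without naming them. Results are therefore given for all 8 libraries, then separately for KO 4, KO 5 and KO 6 and for the remaining KO 2 and KO 3. Both are compared with the same WT libraries.

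With all 8 libraries, 4 of the 39 cilium genes were lower in the KO retinas and none was higher. These were Rpgrip1 (log2 fold change -0.62), which anchors the GTPase regulator Rpgr in the connecting cilium, the BBSome subunits Bbs5 (-0.61) and Ttc8 (-0.42), and the IFT-B subunit Ift81 (-0.38). Calls are adjusted p-values under 0.05 from the edgeR quasi-likelihood test, with Benjamini-Hochberg adjustment over the 20167 tested genes. Of all tested genes, 7.58% were called, 2.84% lower and 4.74% higher, and the 4 cilium genes called lower are 10.3% of 39, a small count in a list chosen with earlier results known. No test of the list as a whole was made. The median log2 fold change was -0.13 over the cilium genes and 0.00073 over all tested genes. At an unadjusted p under 0.05 in edgeR, 12 cilium genes were lower and 2 higher, where 12.2% and 15.1% of all tested genes passed. DESeq2 called 9 lower and 1 higher (15.5% of all tested genes), and limma voom 16 lower and 4 higher (40.9%). The edgeR count was 0 without WT 1, WT 2, WT 3 or KO 4, where 0.636%, 0.646%, 0.955% and 1.84% of all tested genes were called. It was 1 without KO 5 (1.94%), 2 without KO 6 (2.68%), 9 without KO 2 (13.9%) and 11 without KO 3 (20%), so the counts of cilium genes and of all genes rose and fell with the same libraries. Every KO library lay below every WT library for 11 of the 39, and above for 1, where 10.1% and 10.8% of all tested genes did so.

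**Figure D1:**
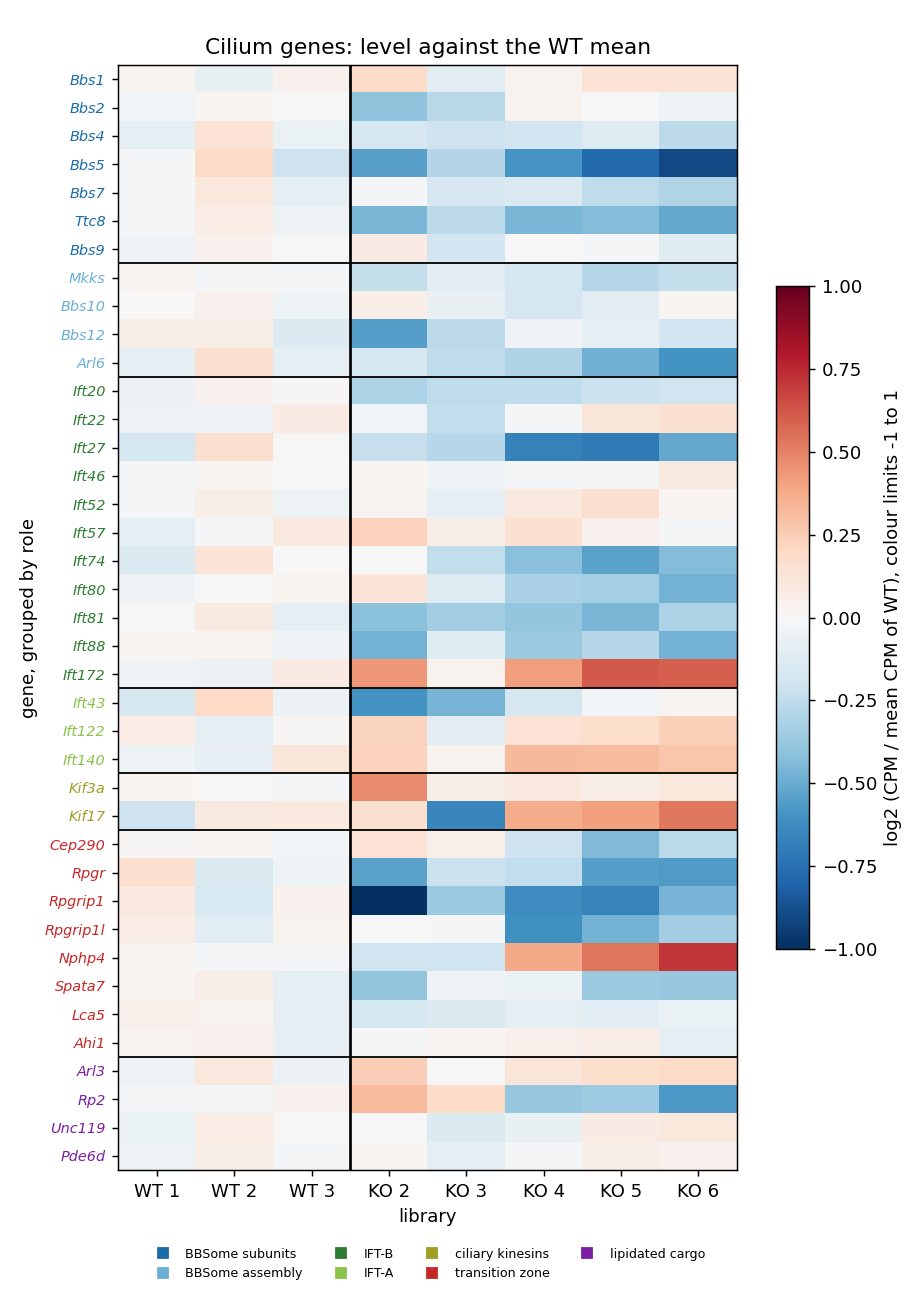
Level of each of the 39 cilium genes (vertical axis, grouped by role) in each library (horizontal axis) as the log2 ratio of its CPM to the mean CPM of the 3 WT libraries; red is above and blue below the WT mean, and colours stop at -1 and 1. Rpgrip1, Bbs5, Ttc8 and Ift81 are blue in all 5 KO libraries, while Rp2, Cep290 and Nphp4 have opposite colours in KO 2 and KO 3 and in KO 4 to KO 6.

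Per kilobase of transcript, the median WT level of the cilium genes was 19.7 CPM per kb. The median was 5.44 over all tested genes with a length, and 33 of 39 lay above that value. Lengths are those of the longest annotated protein-coding transcript, or of the longest of any kind in genes without one. The value of 5.44 is thus not limited to protein-coding genes, which makes the contrast with the cilium genes less direct. The cargo carrier Unc119, which binds the lipid-anchored alpha subunits of transducin, stood highest at 806 ± 39.5 CPM per kb (SD, n = 3). Rpgrip1 (230 ± 20.7), Arl3 (197 ± 12.6), Pde6d (102 ± 4.0) and Arl6 (89.0 ± 8.97) followed, and the spreads of Rpgrip1 and Arl3 met. BBSome subunits lay between 19.7 for Bbs1 and 56.5 for Bbs4, and IFT-B subunits ran from 7.23 for Ift46 to 54.8 for Ift20. The chaperonin-like Bbs10 (4.12) and the kinesin Kif17 (1.19) were lowest, and Kif17 still had 65, 93 and 99 counts in the WT libraries. These levels rest on annotated lengths, and a shorter retinal transcript would raise them.

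**Figure D2:**
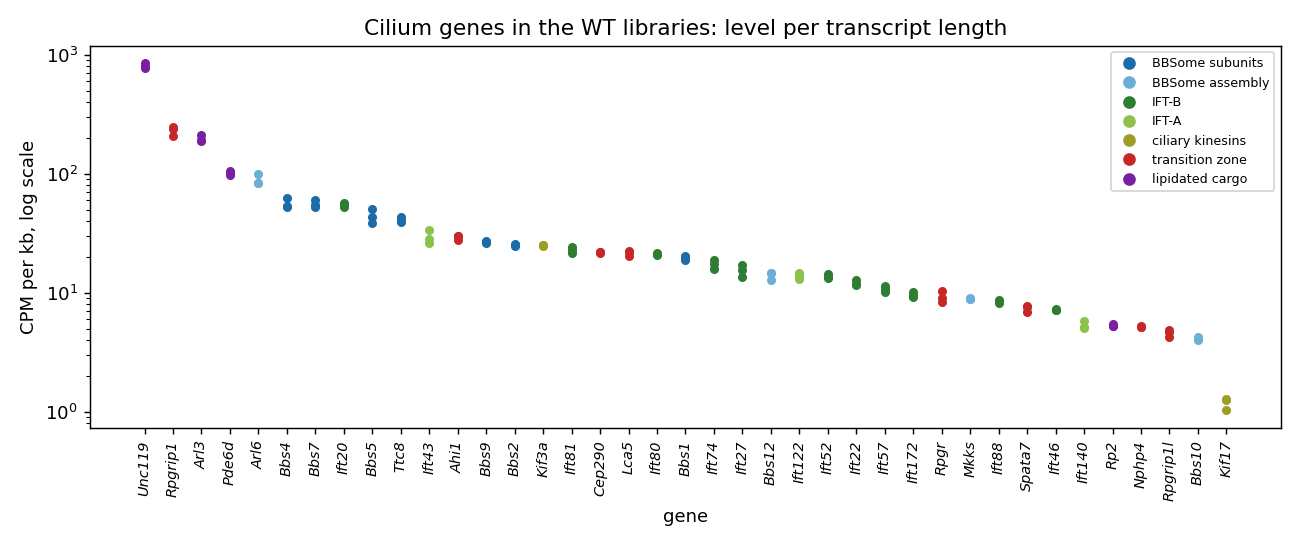
WT level of each cilium gene in CPM per kb of its longest transcript (vertical axis, log scale), with genes in falling order along the horizontal axis; each point is 1 of the 3 WT libraries and colours mark roles. Unc119, Rpgrip1, Arl3 and Pde6d stand at 102 CPM per kb or more, and Kif17 at 1.19.

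Promoters were read for what the members share in sequence. RFX factors, which act on many ciliary genes, bind the X-box, a palindrome whose arms are GTTNCC and GGNAAC with any pair of bases between them. RefSeq promoters (GRCm38.p6, from 250 bases before to 50 bases after the gene start) were matched for 36 of the 39 genes, and Ift80, Ift81 and Ift122 were not matched. The complete palindrome, searched on both strands, was found in 2 of the 36 (5.56%), Bbs7 and Ahi1, and in 143 of 27025 genes with a promoter (0.529%). A single arm written GTTGCC, searched on both strands as GTTGCC or GGCAAC, was found in 14 of the 36 (38.9%) and in 3821 of 27025 (14.1%). It overlaps the palindrome where both match. The stretches below show both palindromes, the site of Bbs5, which is a called gene, and those of the 5 IFT and kinesin genes whose site lies before the RefSeq gene start; capitals mark the match. Distances count from the RefSeq start. GENCODE puts the start of Kif17, Ift27, Ift57, Bbs7 and Kif3a elsewhere. The printed matches of Kif17 and Ift27, and the second of Ift57, lie inside the GENCODE gene. Those of Bbs7 and Kif3a, and the first of Ift57, lie before its start.
Bbs7 (chr3:36613477-36613530, minus strand, match starting 121 bases before the RefSeq start): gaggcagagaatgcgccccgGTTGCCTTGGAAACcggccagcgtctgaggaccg
Ahi1 (chr10:20952560-20952589, plus strand, 22 bases after it): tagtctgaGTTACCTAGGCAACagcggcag
Bbs5 (chr2:69647201-69647220, plus strand, 43 bases after it): caaagccggcgcGTTGCCtt
Ift57, first match (chr16:49699187-49699232, plus strand, 87 bases before it): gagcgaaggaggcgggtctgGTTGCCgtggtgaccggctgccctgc
Ift57, second match (chr16:49699214-49699259, plus strand, 60 bases before it): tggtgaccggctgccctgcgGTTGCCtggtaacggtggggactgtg
Ift27 (chr15:78174065-78174110, minus strand, 9 bases before it): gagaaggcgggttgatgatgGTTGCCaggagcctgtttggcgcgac
Ift140 (chr17:25015957-25016002, plus strand, 109 bases before it): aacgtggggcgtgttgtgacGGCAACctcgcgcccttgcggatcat
Kif3a (chr11:53567251-53567296, plus strand, 98 bases before it): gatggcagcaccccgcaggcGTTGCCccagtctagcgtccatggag
Kif17 (chr4:138262158-138262203, plus strand, 73 bases before it): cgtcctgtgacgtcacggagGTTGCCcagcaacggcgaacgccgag
Of the called genes with a promoter, Bbs5 held the single arm, and these letters were not found in the windows of Rpgrip1 and Ttc8. Bbs7 and Ahi1 were not called, with log2 fold changes of -0.17 and 0.01. A match is a description of letters and not of binding.

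Of the 7 BBSome subunits, Bbs5 and Ttc8 fell in edgeR, where 2.84% of all tested genes did, and the other 5 did not pass that test. DESeq2 called the same genes, and limma voom also Bbs7, as lower. Bbs5 (ENSMUSG00000063145, chr2:69647171-69667571, plus strand, GRCm38), the subunit with phosphoinositide-binding domains, measured 63.9, 74.1 and 56.2 CPM in the WT libraries (WT 1 to WT 3, in that order throughout) and 44.4, 52.9, 42.9, 37.7 and 34.6 CPM in KO 2 to KO 6. All KO values lay below all WT values, KO 3 came within 4 CPM of WT 3, and KO 5 and KO 6 were lowest. The fitted level was 34.3% lower in KO (log2 fold change -0.61, SE 0.14, edgeR adjusted p = 0.0313). The call stood without KO 2 (edgeR adjusted p = 0.0325) or KO 3 (0.00467) and was lost without each of the other 6 libraries, WT 1, WT 2, WT 3, KO 4, KO 5 or KO 6 (0.0574 to 0.158), with the log2 fold change between -0.70 and -0.49. With an offset for GC content in each library, described below, it was also lost (-0.33, 0.0551). Of the 31-base words of Bbs5 transcripts, 4.56% also occur in another gene.

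Ttc8 (ENSMUSG00000021013, chr12:98920574-98983238, plus strand), a scaffold subunit made of tetratricopeptide repeats and also named BBS8, measured 92.1, 98.2 and 90.2 CPM in WT and 68.1, 78.0, 68.1, 69.2 and 65.6 CPM in KO 2 to KO 6. The groups did not overlap, and KO 3 was again the KO library nearest to WT. The level was 25.4% lower (log2 fold change -0.42, SE 0.079, edgeR adjusted p = 0.0170). Without single KO libraries the call stood for KO 2, KO 3, KO 5 and KO 6 (0.00313 to 0.0484), and it was lost without KO 4 (0.0529) or any WT library, WT 1, WT 2 or WT 3 (0.0671 to 0.107). Bbs1, the subunit that meets the recruiting GTPase Arl6, measured 112, 105 and 114 CPM in WT and 126, 102, 113, 122 and 122 CPM in KO, with overlapping groups and a log2 fold change of 0.08 (SE 0.091, edgeR adjusted p = 0.585). Log2 fold changes of the remaining subunits were -0.19 for Bbs4, -0.17 for Bbs7, -0.13 for Bbs2 and -0.04 for Bbs9, and only those of Bbs4 had no overlap between groups. Summed over the 7 subunits, levels were 707 to 770 CPM in WT and 623 to 670 CPM in KO. Whole retina was sequenced, so fewer cells of a type and less RNA per cell cannot be told apart for these or any later values.

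None of the 4 genes of BBSome assembly and recruitment was called by edgeR, where 2 had an unadjusted p under 0.05, and DESeq2 called Arl6 and limma voom Arl6 and Mkks, all lower. Mkks, Bbs10 and Bbs12 encode chaperonin-like proteins that help the complex fold together, and Arl6 encodes the GTPase that brings it to membranes. Arl6 measured 142, 168 and 142 CPM in WT and 134, 127, 122, 108 and 99.6 CPM in KO 2 to KO 6. All KO values lay below WT, with KO 5 and KO 6 lowest and KO 2 within 10 CPM of WT 1, and the log2 fold change was -0.35 (SE 0.11, edgeR adjusted p = 0.0791). Mkks was also without overlap, at -0.21 (edgeR adjusted p = 0.156), but 28.1% of its 31-base words are shared with other genes and 29.3% of its exon bases are overlapped, so its count is less certain. Bbs12 (-0.21) and Bbs10 (-0.05) had overlapping groups.

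The outward transport complex IFT-B was mixed: 1 of 11 subunits fell in edgeR, beside 2.84% of all tested genes, and fitted fold changes ran from -0.47 to 0.43. At an unadjusted p under 0.05 edgeR gave 5 lower and 1 higher. DESeq2 called Ift20, Ift27, Ift81 and Ift88 lower and Ift172 higher, and limma voom these 5 and also Ift74 and Ift80, both lower. Ift81 (ENSMUSG00000029469, chr5:122550204-122614518, minus strand), which binds tubulin together with Ift74, measured 67.1, 71.8 and 63.5 CPM in WT and 50.7, 53.0, 51.7, 49.1 and 54.2 CPM in KO 2 to KO 6. The KO values were tight and all at least 9 CPM below the lowest WT value. The level was 23.3% lower (log2 fold change -0.38, SE 0.073, edgeR adjusted p = 0.0180). The call stood without KO 2, KO 3 or KO 6 (edgeR adjusted p 0.00966 to 0.0365) and was lost without WT 1, WT 2, WT 3, KO 4 or KO 5 (0.0566 to 0.117), while the log2 fold change stayed between -0.43 and -0.33. It was lost with the GC offset too, where the log2 fold change was -0.20 (edgeR adjusted p = 0.163). Its partner Ift74 was at -0.31 (edgeR adjusted p = 0.1495), with KO 2 at 37.4 CPM inside the WT range and KO 4 to KO 6 at 25.6 to 27.9 CPM.

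Ift27, a Rab-like GTPase of IFT-B that links it to BBSome exit, had the largest fold change among cilium genes that were not called. It measured 13.9, 17.5 and 15.6 CPM in WT and 13.3, 12.8, 9.80, 9.61 and 11.0 CPM in KO 2 to KO 6. Its groups did not overlap, but KO 2 lay within 1 CPM of WT 1, and the log2 fold change was -0.47 (SE 0.15, edgeR adjusted p = 0.0722). Ift88, a core subunit needed for outer segment growth, measured 26.6, 26.7 and 25.6 CPM in WT and 18.9, 24.2, 20.3, 21.5 and 18.9 CPM in KO. Here too every KO value lay below WT, with KO 3 nearest, at a log2 fold change of -0.34 (SE 0.11, edgeR adjusted p = 0.0758). Ift20, which also works at the Golgi in sorting membrane proteins to the cilium, just missed the threshold at -0.25 (edgeR adjusted p = 0.0522), with WT at 60.1 to 64.3 CPM and KO at 50.4 to 54.4 CPM.

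The subunit farthest in the other direction was Ift172, at 50.5, 49.7 and 54.7 CPM in WT and 69.8, 52.8, 68.9, 79.0 and 78.1 CPM in KO 2 to KO 6. Its log2 fold change was 0.43 (SE 0.12, edgeR adjusted p = 0.0589), and KO 3 alone among KO libraries lay within the WT range. Of the rest, Ift80 was at -0.21, Ift57 at 0.10, Ift52 at 0.05, Ift46 at 0.01 and Ift22 at 0.00, all with overlapping groups. Ift46 was the steadiest, with all 8 libraries between 29.2 and 32.2 CPM.

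No IFT-A or kinesin gene was called by edgeR or DESeq2. At an unadjusted p under 0.05, edgeR gave 1 IFT-A gene, Ift140, which limma voom called higher, and 0 kinesins. Ift140, a core subunit of the return complex, measured 35.7, 35.0 and 40.4 CPM in WT and 43.4, 38.0, 46.4, 46.2 and 44.9 CPM in KO 2 to KO 6, with KO 3 inside the WT range, and its log2 fold change was 0.24 (SE 0.094, edgeR adjusted p = 0.132). Ift122 was at 0.14 and Ift43 at -0.23. Kif3a, the motor subunit shared by heterotrimeric kinesin-2, measured 80.04, 79.1 and 77.9 CPM in WT and 110, 82.4, 84.7, 82.7 and 84.8 CPM in KO 2 to KO 6. It was the only cilium gene with every KO library above every WT library, but KO 2 stood far above the other 4, and the log2 fold change of 0.17 (SE 0.10, edgeR adjusted p = 0.320) was 0.10 in KO 4 to KO 6 alone. Kif17, the homodimeric kinesin-2, was at 0.22 with KO 3 lowest of all libraries (2.62 CPM) and KO 6 highest (5.92 CPM).

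Of the 8 genes of the transition zone and connecting cilium, Rpgrip1 fell in edgeR, beside 2.84% of all tested genes, and 7 did not pass that test. DESeq2 also called Rpgr lower, and limma voom called Rpgr, Cep290 and Rpgrip1l lower and Nphp4 higher. Rpgrip1 (ENSMUSG00000057132, chr14:52110704-52163546, plus strand) measured 1328, 1114 and 1275 CPM in WT and 606, 961, 805, 778 and 895 CPM in KO 2 to KO 6. Every KO value lay below every WT value, KO 2 was lowest, and KO 3 was nearest to WT. The level was 34.7% lower (log2 fold change -0.62, SE 0.15, edgeR adjusted p = 0.0349). The call stood without KO 2 (edgeR adjusted p = 0.0194) or KO 3 (0.00797) and was lost without WT 1, WT 2, WT 3, KO 4, KO 5 or KO 6 (0.0588 to 0.154), with the log2 fold change between -0.68 and -0.53. Of its exon bases, 8.70% are overlapped by Supt16 on the opposite strand, and whether reads were counted by strand is not given in the sources used here. Rpgrip1 made up much of the summed level of the cilium genes: all 39 summed to 4809 to 4856 CPM in WT and 4177 to 4373 CPM in KO, without overlap, while the other 38 summed to 3513 to 3742 CPM and 3297 to 3571 CPM, with overlap.

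Rpgr, which Rpgrip1 holds at the connecting cilium, measured 39.5, 31.9 and 34.1 CPM in WT and 24.2, 30.2, 29.7, 24.02 and 23.7 CPM in KO 2 to KO 6. All KO values lay below WT, KO 3 and KO 4 by little, and the log2 fold change was -0.42 (SE 0.12, edgeR adjusted p = 0.0621). Cep290, a large protein of the links between the axoneme and the membrane, measured 181, 182 and 177 CPM in WT and 199, 187, 156, 133 and 150 CPM in KO 2 to KO 6. KO 2 and KO 3 lay above all WT libraries and KO 4 to KO 6 below them, and the fit over all libraries gave -0.13 (SE 0.13, edgeR adjusted p = 0.559). Nphp4 was split the other way, at 26.1 to 26.7 CPM in WT, 22.9 and 23.01 CPM in KO 2 and KO 3, and 34.2 to 43.1 CPM in KO 4 to KO 6. The Rpgrip1 paralog Rpgrip1l was at -0.27, Spata7, which Rpgrip1 needs for its place in the cilium, at -0.24, Lca5 at -0.12 and Ahi1 at 0.01.

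None of the 4 cargo genes was called by edgeR or DESeq2, and 0 had an unadjusted p under 0.05 in edgeR, while limma voom called Arl3 higher and Rp2 lower. Arl3, whose active form releases lipidated cargo inside the cilium, measured 192, 213 and 190 CPM in WT and 235, 199, 216, 224 and 226 CPM in KO 2 to KO 6, with KO 3 inside the WT range, and its log2 fold change was 0.15 (SE 0.093, edgeR adjusted p = 0.329). Of its 31-base words, 14.1% also occur in another gene. The carriers Unc119 (-0.0025) and Pde6d, which binds prenylated proteins (0.0035), lay close to 0. Rp2, the protein that switches Arl3 off, measured 23.7, 23.6 and 24.7 CPM in WT, 29.9 and 27.3 CPM in KO 2 and KO 3, and 18.4, 18.7 and 16.1 CPM in KO 4 to KO 6, so KO 2 and KO 3 lay above WT and the others below.

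**Figure D3:**
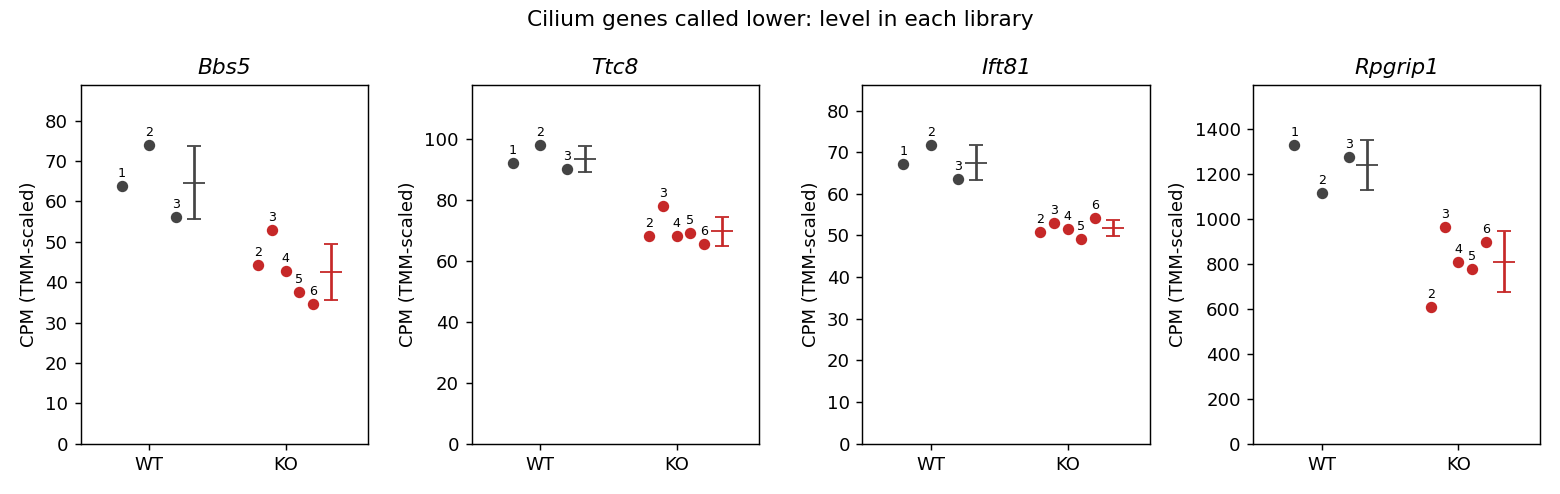
CPM (TMM-scaled, vertical axis from 0) of the 4 called cilium genes in each library, with numbered points for WT 1 to WT 3 (grey) and KO 2 to KO 6 (red) and the mean ± SD beside each group. In each panel all 5 KO points lie below all 3 WT points, and KO 2 is lowest for Rpgrip1 and KO 6 for Bbs5 and Ttc8.

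The comparison depended on which KO libraries entered it. KO 4 to KO 6 were set apart because their counts agreed in these same data, so a small spread was selected. The p-values and counts of calls in that set, here and below, follow in part from that choice. In KO 4 to KO 6 against WT, 22 of the 39 cilium genes were called, 16 lower and 6 higher, beside 42.8% of all tested genes (20.5% lower and 22.3% higher). Bbs5 (-0.74), Ift27 (-0.62), Rpgrip1 (-0.57) and Rpgrip1l (-0.46) had the lowest fold changes and Nphp4 (0.56), Ift172 (0.56), Kif17 (0.45) and Ift140 (0.32) the highest. In KO 2 and KO 3 against WT none was called by edgeR, and 0.891% of all tested genes were. At an unadjusted p under 0.05, 9 cilium genes were lower and 2 higher, where 8.82% and 10.1% of all tested genes were, 19.0% in all. The values of the called genes in KO 2 and KO 3 were -0.66 for Rpgrip1, -0.41 for Bbs5, -0.36 for Ttc8 and -0.38 for Ift81, with edgeR adjusted p-values of 0.105 to 0.176. In KO 4 to KO 6 the same genes were at -0.57, -0.74, -0.46 and -0.37. These signs are no separate evidence, since the genes were called over the same libraries, and 20 of the 39 cilium genes were below WT in both comparisons. Ift80, Cep290 and Rp2 were above WT in KO 2 and KO 3 and below in KO 4 to KO 6, and Bbs2, Ift22, Ift46, Ift52, Kif17, Nphp4, Unc119 and Pde6d were placed the other way round. The difference between the comparisons was not tested. Over the 10 ways to keep 3 of the 5 KO libraries, as the authors did, Ttc8 and Ift81 were each called in 5, and Bbs5 and Rpgrip1 in 4. The 4 fits that called Bbs5 and Rpgrip1 were those without KO 3. Ttc8 and Ift81 were called in these and in the fit without KO 2 and KO 6. Of 19458 to 19763 tested genes, 2225 to 8416 were called in the fits without KO 3 and 118 to 645 in those that kept it. Of the members not called with all libraries, Ift88 (lower) and Ift172 (higher) were also called in 4, Rpgr in 2, and no other in more than 1.

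**Figure D4:**
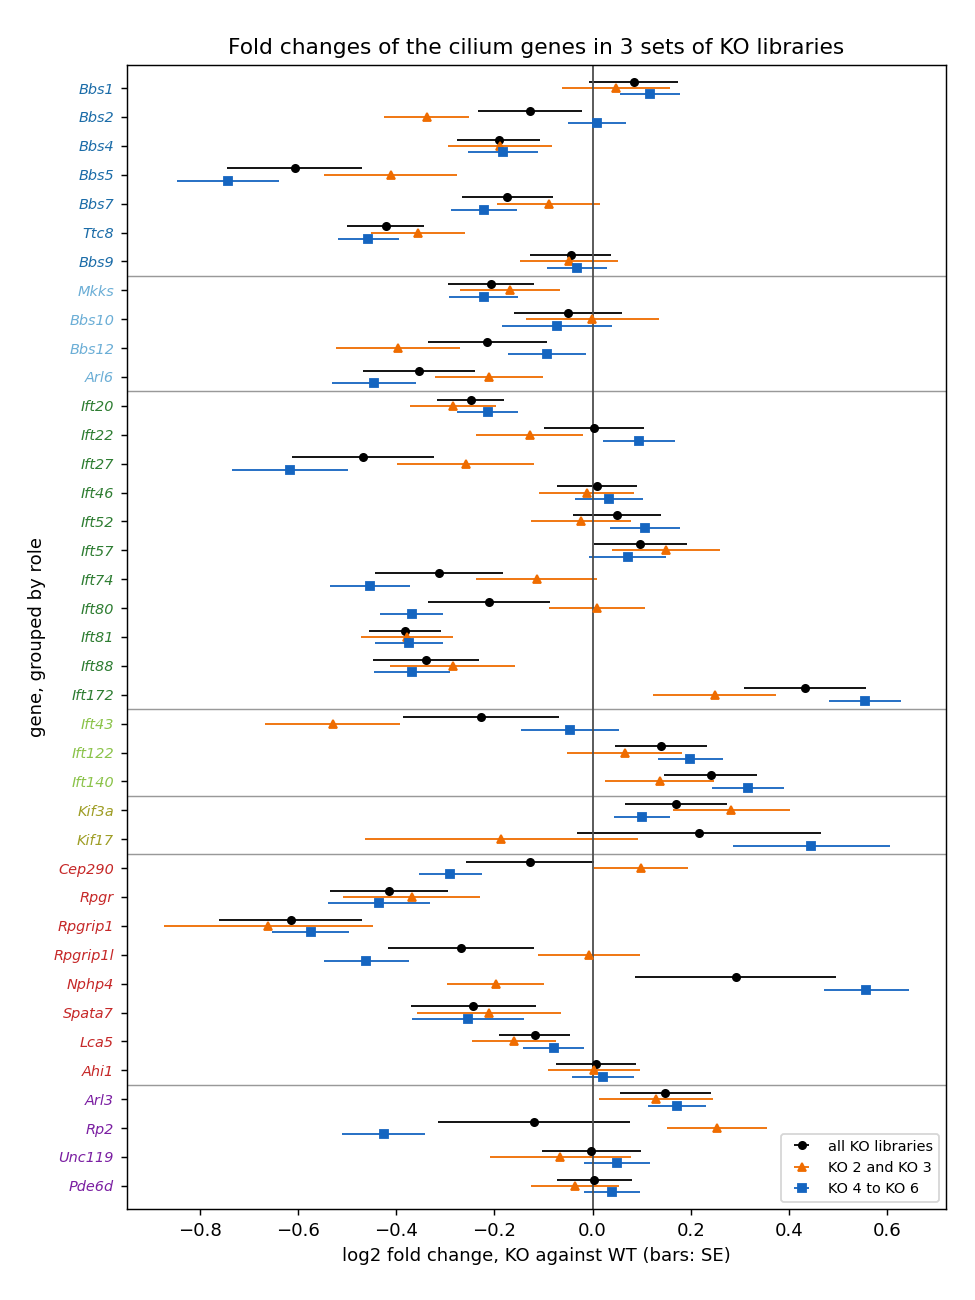
Log2 fold change of KO against WT with its SE (horizontal axis) for each cilium gene (vertical axis, grouped by role) with all KO libraries (black), KO 2 and KO 3 (orange) and KO 4 to KO 6 (blue), each against the same 3 WT libraries. Rpgrip1, Ttc8 and Ift81 have similar values in all 3 fits, and Cep290, Rp2 and Nphp4 lie on opposite sides of 0 in KO 2 and KO 3 and in KO 4 to KO 6.

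Fold changes of the cilium genes moved with base composition. Across the 39 genes, which share libraries and are not independent, the rank correlation (Spearman's rho) of log2 fold change with the GC content of the longest transcript was 0.581 with all libraries, 0.716 in KO 4 to KO 6 and 0.117 in KO 2 and KO 3. Over all tested genes with GC content, the values were 0.460, 0.539 and 0.162. In KO 4 to KO 6, the 24 cilium genes under the median GC content of tested genes (49.5%) had a median log2 fold change of -0.24, and the other 15 had 0.09. Cep290 (38.7% GC) and Rp2 (35.9%) are at the low end, and Nphp4 (59.3%) and Kif17 (60.1%) at the high end. When each library was given an offset for GC content, rho over the cilium genes was 0.019 and 3 of the 39 were called lower, Rpgrip1 (log2 fold change -0.63, edgeR adjusted p = 0.0246), Ttc8 (-0.29, 0.0260) and Ift20 (-0.24, 0.0496), beside 5.87% of genes called and 2.31% called lower. Bbs5 and Ift81 lost their calls, as given above, and the median over the 39 was -0.04. In KO 4 to KO 6 with the offset, 12 were called, 6 lower and 6 higher, beside 31.7% of all genes (14.4% lower). Rpgrip1 was as low with the offset as without it, but at 49.8% GC it lies next to the median of tested genes. Its value therefore says little about base composition. In KO 4 to KO 6, 2 genes called lower changed sign with the offset. Cep290 went from -0.29 to 0.18 (edgeR adjusted p = 0.0211) and Rp2 from -0.43 to 0.20 (0.127). Arl3, called higher there, went from 0.17 to -0.02 (0.833), and Unc119, not called there, from 0.05 to -0.29 (0.00337).

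**Figure D5:**
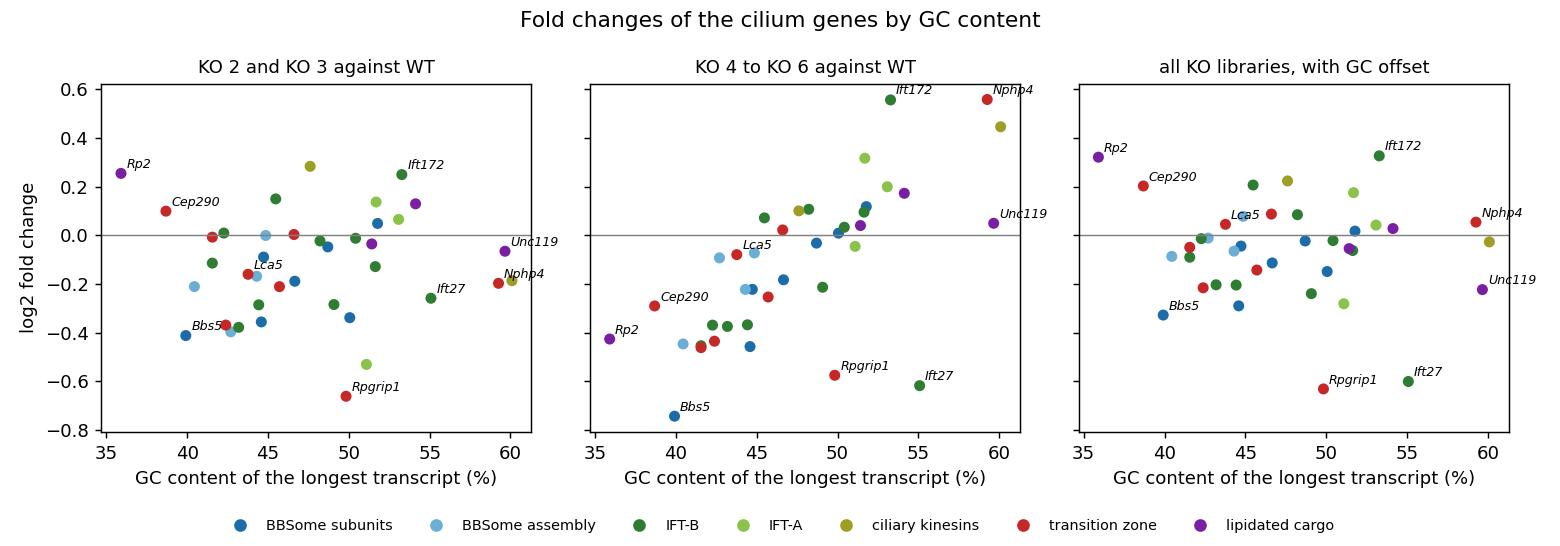
Log2 fold change of each cilium gene (vertical axis) against the GC content of its longest transcript in percent (horizontal axis) for KO 2 and KO 3, for KO 4 to KO 6, and for all KO libraries with the GC offset; each point is a gene, coloured by role. The rise from low to high GC content in the middle panel (rho 0.716) is not seen in the right panel (rho 0.019), where Rpgrip1 and Ift27 are lowest.

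Other genes of the same pathways were taken from lists of 89 tested genes in 6 groups. With all libraries 4 were lower and 1 was higher, beside 2.84% and 4.74% of all tested genes, and the median log2 fold change was -0.03. The lower genes were Bbip1 (-0.64, edgeR adjusted p = 0.0288), the smallest BBSome subunit, Lztfl1 (-0.74, 0.0443), which regulates BBSome traffic, Dynlt2b (-0.80, 0.0311), a light chain of the dynein that drives return transport, and the transition zone gene Cc2d2a (-0.39, 0.0232). Tulp3, which hands receptors to IFT-A, was higher (0.56, 0.0336). All 5 stayed called without KO 2 or KO 3 and lost their calls without WT 1, WT 2, WT 3, KO 4 or KO 5, and Lztfl1, Dynlt2b and Tulp3 also without KO 6 (edgeR adjusted p 0.0606 to 0.168 where lost). With the GC offset Bbip1, Dynlt2b, Cc2d2a and Tulp3 were still called and Lztfl1 was not (0.0716). Bbip1 measured 46.8, 54.5 and 50.1 CPM in WT and 38.2, 39.1, 29.1, 30.3 and 25.4 CPM in KO 2 to KO 6, a separation of groups like that of Bbs5 and Ttc8. By group, 2 of 9 other BBSome genes, 0 of 10 other IFT subunits, 1 of 12 other motor subunits, 1 of 21 other transition zone genes, 0 of 25 axoneme and basal body genes and 0 of 12 other cargo genes were called lower. At an unadjusted p under 0.05 edgeR gave 6 lower of the 9, 3 lower of the 12 motor subunits and 4 lower of the 21, each with 0 higher. It gave 5 lower and 1 higher of the 10, 3 lower and 5 higher of the 25, and 1 lower and 5 higher of the 12 cargo genes. Of all tested genes, 12.2% were lower and 15.1% higher at that threshold. In KO 2 and KO 3 none of the 89 was called by edgeR, where 12 had an unadjusted p under 0.05 beside 19.0% of all tested genes, and in KO 4 to KO 6 25 were higher and 29 lower, 54 of 89 beside 42.8% of all tested genes (22.3% higher and 20.5% lower).

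Markers of the cells that could carry these transcripts moved in part with the comparison. With all 8 libraries, edgeR called 7.58% of all tested genes, 4.74% higher and 2.84% lower, and the marker calls that follow stand beside these shares. Of 10 rod markers 1 was called, Sag, which rose (0.87), and the summed rod list was 45130 to 49280 CPM in WT and 40580 to 58610 CPM in KO. The rod markers Gnat1, Pde6a and Pde6b are also among the other cargo genes above, so these lists are not separate. Of 8 cone markers, Gnat2 (-0.47), Pde6h (-0.74) and Gngt2 (-0.60) fell and Pde6c rose (0.51), and the summed list was 953 to 1190 CPM in WT and 688 to 916 CPM in KO. Of 12 markers of motile cilia 9 were tested, and Dnah9 (-0.87) and Ccdc39 (-0.57) fell. That list summed to 61.7 to 68.1 CPM in WT and 41.4 to 52.8 CPM in KO, while its defining factor Foxj1 stood at 3.68 to 6.79 CPM over all libraries, Rsph1 at no more than 0.235 CPM and Tekt4 at no more than 0.739 CPM, beside a floor of 3 counts that equals 0.119 to 0.169 CPM. Of other cell types, the Muller glia markers Sox9 (0.62) and Kcnj10 (0.54), 2 of 7, rose, with a summed list of 3611 to 3797 CPM in WT and 3656 to 5465 CPM in KO. The microglia markers Tmem119 (0.94) and Csf1r (0.69), 2 of 6, rose, with 22.9 to 25.8 CPM in WT and 28.6 to 40.8 CPM in KO. Of 5 endothelial markers Kdr rose (0.92), with 143 to 149 CPM in WT and 193 to 290.5 CPM in KO for the list. Calb1 fell (-0.49) as 1 of 7 amacrine and horizontal cell markers, and no bipolar, ganglion, pigment epithelium, lens or ciliary body marker was called by edgeR, where 8 of these 34 had an unadjusted p under 0.05 beside 27.3% of all tested genes. With the GC offset Calb1 was at -0.06 (edgeR adjusted p = 0.821), Ccdc39 at -0.28 (0.176), Tmem119 at 0.73 (0.0950) and Csf1r at 0.56 (0.0587), none of them called, while the other called markers named here stayed called, and the ganglion cell marker Sncg (-0.37, 0.0461) and the pigment epithelium marker Lrat (1.04, 0.0414) were called as well.

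In KO 4 to KO 6 against WT, where 42.8% of all tested genes were called, more markers were called by edgeR. Rod markers had 4 higher and 4 lower of 10, cone markers 2 higher and 5 lower of 8, and motile cilia markers 1 higher and 2 lower of 9. Muller glia had 5 of 7 higher, microglia 3 of 6 and endothelium 3 of 5, with none lower. Bipolar markers had 3 higher and 2 lower of 7, pigment epithelium 3 higher and 2 lower of 7, ganglion cells 1 higher and 2 lower of 6, and amacrine and horizontal cells 1 higher and 1 lower of 7. All 8 lens markers and 3 of 6 ciliary body markers were lower. The lens crystallin Cryaa, for example, measured 249.6, 468 and 6.71 CPM in WT and 3.64, 0.256 and 0 CPM in KO 4 to KO 6, so WT libraries also differed widely among themselves. In KO 2 and KO 3 against WT, where 0.891% of all tested genes were called, edgeR called 4 of the 86 markers. These were the cone markers Arr3 (-1.33, adjusted p = 0.0293) and Pde6h (-0.77, 0.0164), the motile cilia marker Dnah9 (-0.93, 0.0473) and the endothelial marker Kdr (0.70, 0.0454). Arr3, the cone arrestin, measured 159, 146 and 148 CPM in WT and 44.2 and 76.0 CPM in KO 2 and KO 3, and with all libraries it was at -0.72 (edgeR adjusted p = 0.103). At an unadjusted p under 0.05, 32 of the 86 markers passed beside 19.0% of all tested genes. The part of cell composition in the values of the cilium genes was not tested.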

How the data were processed

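Retinal RNA of 8 libraries was measured as gene counts. The authors deposited estimated counts per gene, whole numbers with at least 16 in total per gene. The submitters' processing notes name Trim Galore, Salmon 1.10.2, DESeq2 and GRCm38, without their roles, and the annotation release and strand setting are not given in the sources used here. The counts were tested as deposited with edgeR 4.0.16 in R 4.3.3 (filterByExpr, TMM, glmQLFit and glmQLFTest, all 8 libraries, no covariate), with Benjamini-Hochberg adjustment over the 20167 tested genes. The SE of a log2 fold change is its size divided by the root of F. Each library was counted as a replicate. No pair agreed within sampling noise (chi-square per degree of freedom 5.85 or more), so none is a repeat count of another. This does not show that the libraries came from separate animals. P-values set a difference against the spread between these libraries. At 17759146 to 25188870 counts, the floor of 3 counts equals 0.119 to 0.169 CPM and covers counting error only. The main fit and the GC offset were tried on simulated counts whose spread came from the WT libraries. Apart from a GC slope given to KO 4 to KO 6 for the offset, the simulated KO libraries did not differ as the real ones do. The simulation therefore does not show how the calls behave with such differences.

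Gene positions, lengths and GC content (18028 of 20167 tested genes, 89.4%) came from GENCODE M21 on GRCm38, and promoters from RefSeq. Length and GC content are those of the longest protein-coding transcript, or of the longest of any kind where a gene has none. The GC and length offsets used a spline with 5 degrees of freedom for each library. Alternatives were limma voom 3.58.1 with quality weights, DESeq2 1.42.0, its size factors in edgeR, scaling by library size only, no filter, at least 1 CPM in 3 libraries, left-out libraries, and a replicate block. The numbers 2 and 3 occur in both groups with no label saying that they pair animals. The members and lists were chosen with earlier results of these data known. By rule, values in each library are given for every called member, for the uncalled member with the largest fold change and for Bbs1, Arl6, Ift88, Ift140, Kif3a, Cep290, Rpgr and Arl3, and other pathway genes are named where called. Values in each library for Ift172, Rp2 and Bbip1, and the ranges given for other members, were chosen after their values were seen.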

Additional observations from a re-analysis of the deposited data

Results flagged for a closer look

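Among the 5 KO libraries, 2 of 44 genes examined (the 39 cilium genes and the 5 other pathway genes called) had a library whose gap to its nearest neighbour, as a share of the range of log2 CPM, passed the limit of 0.71. Chance gives about 2.2 such gaps among 44. Kif3a was high in KO 2, at 110 CPM against 82.4 to 84.8 CPM in the other KO libraries, with a gap of 0.899. Ift122 was low in KO 3, at 52.7 CPM against 63.3 to 67.4 CPM, with a gap of 0.745, and that value lay just under the lowest WT library.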

How the results depend on the processing

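Counts of called genes varied strongly with the libraries and the tool. Against 1529 of all genes and 4 of 39 cilium genes, DESeq2 called 3127 and 10, and limma voom 8248 and 20. Leaving out libraries gave 118 to 8416 and 0 to 22, with 0 cilium genes without WT 1, WT 2, WT 3 or KO 4 and 9 and 11 without KO 2 and KO 3, where 2781 and 3992 of all genes were called (unadjusted p under 0.05 in edgeR: 12, 8, 11 and 10 of 39 for the fits with 0, beside 18.8% to 22.9% of all tested genes). KO 2 and KO 3 against WT gave 180 and 0, or 172 and 0 with the GC offset, and KO 4 to KO 6 with that offset 5594 and 12. Over WT 2, WT 3, KO 2 and KO 3 the replicate block gave 52 and 0 (6 of 39 at an unadjusted p under 0.05, beside 9.93% of all genes), no block 14 and 0, and the block with numbers crossed, added after seeing the data, 527 and 1; deviations of same-numbered libraries had a correlation of -0.19. Library size alone gave 566 higher and 787 lower genes against 956 and 573, shifting the median of all genes to -0.03, and called 6 cilium genes, all lower. The other scaling, filter and length settings kept 4 or 5 cilium genes, all lower. Over 13 settings other than the fits without 1 or 2 libraries, 427 of 572 values of single genes kept direction and side of the threshold. Another 67 values of 16 genes changed sign without a call, 43 lost a call, 34 gained one and 1 turned. These settings include fits on fewer libraries. KO 2 and KO 3 against WT, with and without the GC offset, lost 9 calls each. So did WT 2, WT 3, KO 2 and KO 3 with and without the replicate block. KO 4 to KO 6 with the GC offset lost 1, gained 8 and held the value that turned, Cep290 at 0.18. The cause was not tested. Kif17 had the fewest counts among the cilium genes, 55 in KO 3 to 130 in KO 6.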
